A study of Rattus norvegicus with 22 samples.

Results

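The collagens, laminins and matrix receptors of the kidney were followed in RNA sequencing data of whole left kidneys from 22 male PKD/Mhm (Cy/+) rats. The list held 45 genes, given by name with no threshold on their values. The genes were found by rat Entrez identifiers matched to RefSeq symbols. Of these, 32 were among the 17334 genes of the deposited tables, and all 32 passed the filter on low counts, which left 12867 genes for testing. The other 13, among them Col4a2, Col4a5, Col6a1, Lamb1, Nid1, Hspg2 and Itgav, were not analysed here. PKD/Mhm (Cy/+) is a rat strain with polycystic kidneys that carries a missense mutation of the gene of SamCystin (Anks6). The animals of every group carried it, the untreated ones included, so no comparison with non-cystic kidney could be made. The untreated group held 6 rats. A further 6 rats received human adipose-derived stromal cells (ASC) monthly over 6 months by intraperitoneal injection (i.p. ASC), and 6 by intravenous injection (i.v. ASC), at 2000000 cells per injection. The ASC-derived CM group held 4 rats and received the medium conditioned by these cells, also monthly over 6 months. The sources used here disagree on its route, i.v. in the study's methods and i.p. in the series' design text. Kidneys were taken at the age of 8 months, and each rat was sequenced separately. The total of the estimated counts ran from 12195682 to 14734772 per rat. The kidney origin was plain in all 22 rats from Umod, a thick ascending limb gene (1294 to 7945 CPM), and Slc34a1, a proximal tubule gene (387 to 2717 CPM). CPM is the count of a gene relative to the library size of the rat after TMM scaling.

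Fibrillar collagens such as types I, III and V form the interstitial fibres that accumulate in a scarred kidney. The basement membrane is a separate sheet under the epithelium and around vessels, built from type IV collagen, laminins, nidogens and heparan sulfate proteoglycans. Laminins are assembled from an alpha, a beta and a gamma chain, and the glomerular basement membrane uses a type IV collagen network of its own that contains the products of Col4a3 and Col4a4. Cells hold on to both kinds of matrix through integrins, which pair an alpha with a beta chain, through syndecans, which are cell surface proteoglycans, and through dystroglycan. In polycystic kidneys, cyst epithelium lies on an altered basement membrane and the interstitium around it becomes fibrotic.

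Levels were compared between genes only as TPM, the deposited value that is scaled by transcript length, in the 6 untreated rats. The highest was Sdc4 (Entrez 24771), a syndecan, with a lowest, median and highest value of 378, 415 and 471 TPM. Itgb1 (Entrez 24511), the beta chain shared by many integrins, followed at 257, 297 and 318 TPM, and its range did not overlap that of Sdc4. Col4a1, a chain of the type IV collagen found in all basement membranes, had 128, 182 and 298 TPM, a range that overlapped those of Itgb1 and of Col18a1 (149, 169 and 202 TPM). Lamb2, the laminin beta chain of mature basement membrane, had a median of 97.6 TPM and Dag1, the gene of dystroglycan, one of 96.8 TPM. The highest fibrillar collagen was Col3a1 with a median of 90.3 TPM, followed by Col1a1 with 60.8 TPM, while Col1a2, Col5a2 and Col5a1 had medians of 24.5, 21.2 and 12.4 TPM. The lowest were Itga8 (4.28 TPM), Lama1 (4.13 TPM) and Col14a1 (1.72 TPM). Most neighbours in this order overlapped in range and could not be ordered beyond the spread between rats.

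No matrix or receptor gene passed the threshold of edgeR in any treated group when compared with the untreated group, and 2 passed that of DESeq2 after i.v. ASC. With edgeR's quasi-likelihood test and Benjamini-Hochberg adjustment at 0.05 over 12867 genes, 0 of the 32 genes were called after i.p. ASC, i.v. ASC or ASC-derived CM, against 0.0% of all genes in each. The smallest adjusted p among the 32 genes was 0.771, 0.259 and 0.711. At an unadjusted p below 0.05 there were 1, 5 and 4 of the 32 genes, beside 3.89%, 8.81% and 6.6% of all genes tested. DESeq2, the tool that the study's methods name, called 0, 2 and 0 of the 32 genes, beside 0.0%, 0.183% and 0.0262% of 15266 genes, and the 2 after i.v. ASC were Sdc1 and Lama1. By sign alone, 28 of the 32 genes had a value below 0 after i.p. ASC, 25 after i.v. ASC and 18 after ASC-derived CM, where 53.8%, 52.5% and 50.9% of all genes did. The other 4, 7 and 14 genes were above 0, beside 46.2%, 47.5% and 49.1% of all genes. The median log2 fold change of the 32 genes was -0.14, -0.15 and -0.05, against -0.01, -0.01 and -0.0029 for all genes. The CM median turned to 0.05 without CM rat 2 and was -0.15 without CM rat 19, and the i.v. median was -0.02 without i.v. rats 3, 9 and 13, a choice made after the data were seen. The 3 comparisons share the same untreated rats, so their likeness is no independent support.

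**Figure D1:**
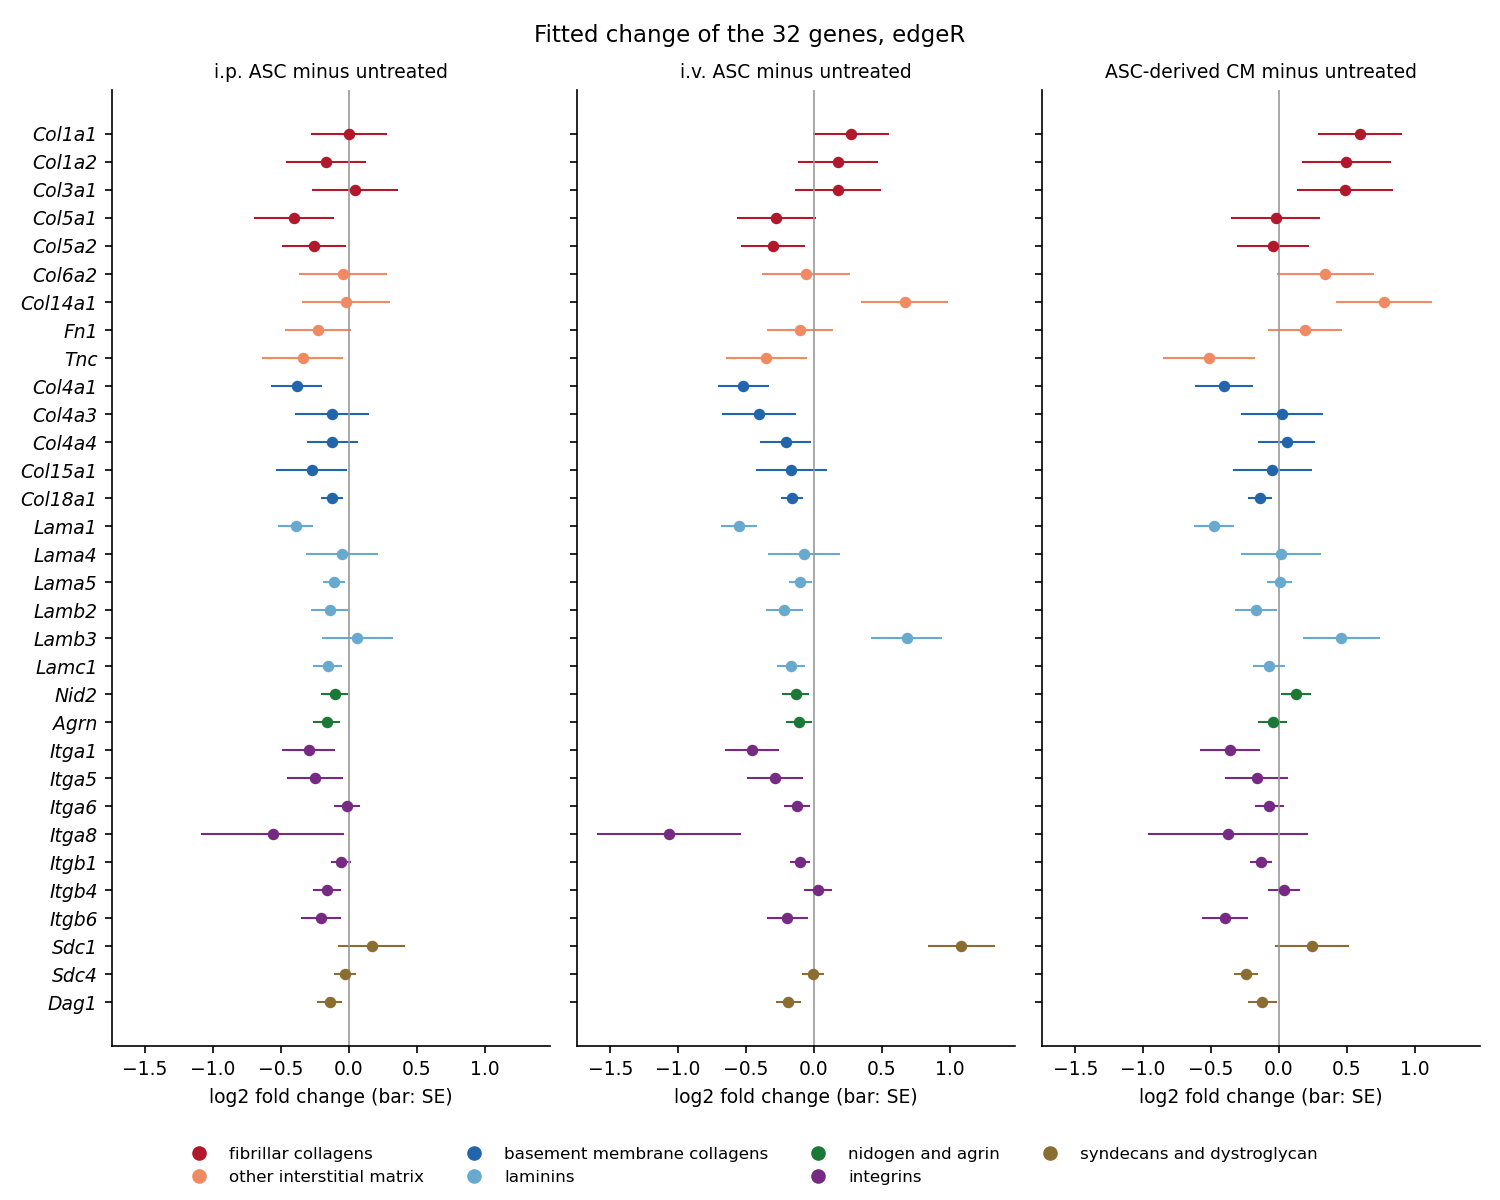
Log2 fold change of each of the 32 genes against the untreated group (x axis, log2 scale) for i.p. ASC, i.v. ASC and ASC-derived CM, with points for the edgeR estimate, bars for its standard error, and colours for the class. The fibrillar collagens Col1a1, Col1a2 and Col3a1 lie right of 0 after ASC-derived CM (0.60, 0.50 and 0.49), Lama1 lies left of 0 in all 3 panels, and Sdc1 stands apart after i.v. ASC at 1.09.

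The type I and III collagen genes spread less in the untreated group than in the treated groups, where single rats lay below or above all untreated rats. For the type V genes, no treated rat lay above the highest untreated rat. Col3a1 (Entrez 84032), the type III collagen chain, had a lowest, median and highest value of 292, 331 and 446 CPM in untreated rats, 168, 413 and 533 CPM after i.p. ASC, and 150, 420 and 661 CPM after i.v. ASC. The 4 rats of the ASC-derived CM group had 266, 509, 644 and 560 CPM. Rats 5 and 7 of the i.p. group, rats 3 and 9 of the i.v. group and rat 2 of the CM group were below every untreated rat, and the groups overlapped throughout. Col1a1, the main chain of type I collagen, had 238, 268 and 310 CPM in untreated rats, 123, 281 and 402 CPM after i.p. ASC, and 166, 331 and 544 CPM after i.v. ASC. Its values in the CM rats were 224, 525.6, 455 and 441 CPM, so that 3 of 4 lay above all untreated rats and 1 below. The coefficient of variation of Col1a1 was 10.4% in untreated rats, and the SD of the class mean over rats was 0.211 (untreated), 0.619 (i.p.), 0.65 (i.v.) and 0.5 (CM) on the log2 CPM scale. These widths are given as a description, with no test. The fitted log2 fold change of Col1a1 was 0.00 ± 0.28 (SE), 0.27 ± 0.28 and 0.60 ± 0.31, with an adjusted p of 0.999, 0.675 and 0.711 from edgeR. Over the 5 fibrillar genes, the median was -0.17, 0.18 and 0.49. The i.p. median turned to 0.16 with 1 surrogate variable and to 0.23 within 1 of 2 sets of libraries, which differed in the count per TPM of short against long transcripts, and the surrogate variable moved the i.v. and CM medians to 0.56 and 0.91. Col5a1 and Col5a2, the type V chains that start fibril assembly, had values of -0.28 and -0.30 after i.v. ASC and of -0.02 and -0.04 after ASC-derived CM, below those of the type I and III genes. The i.v. median rested on few rats, being 0.53 with all 5 genes above 0 when rats 3, 9 and 13 were left out, and -0.04 without rat 8. The i.p. median was -0.02 without i.p. rat 7 and -0.30 without i.p. rat 17.

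**Figure D2:**
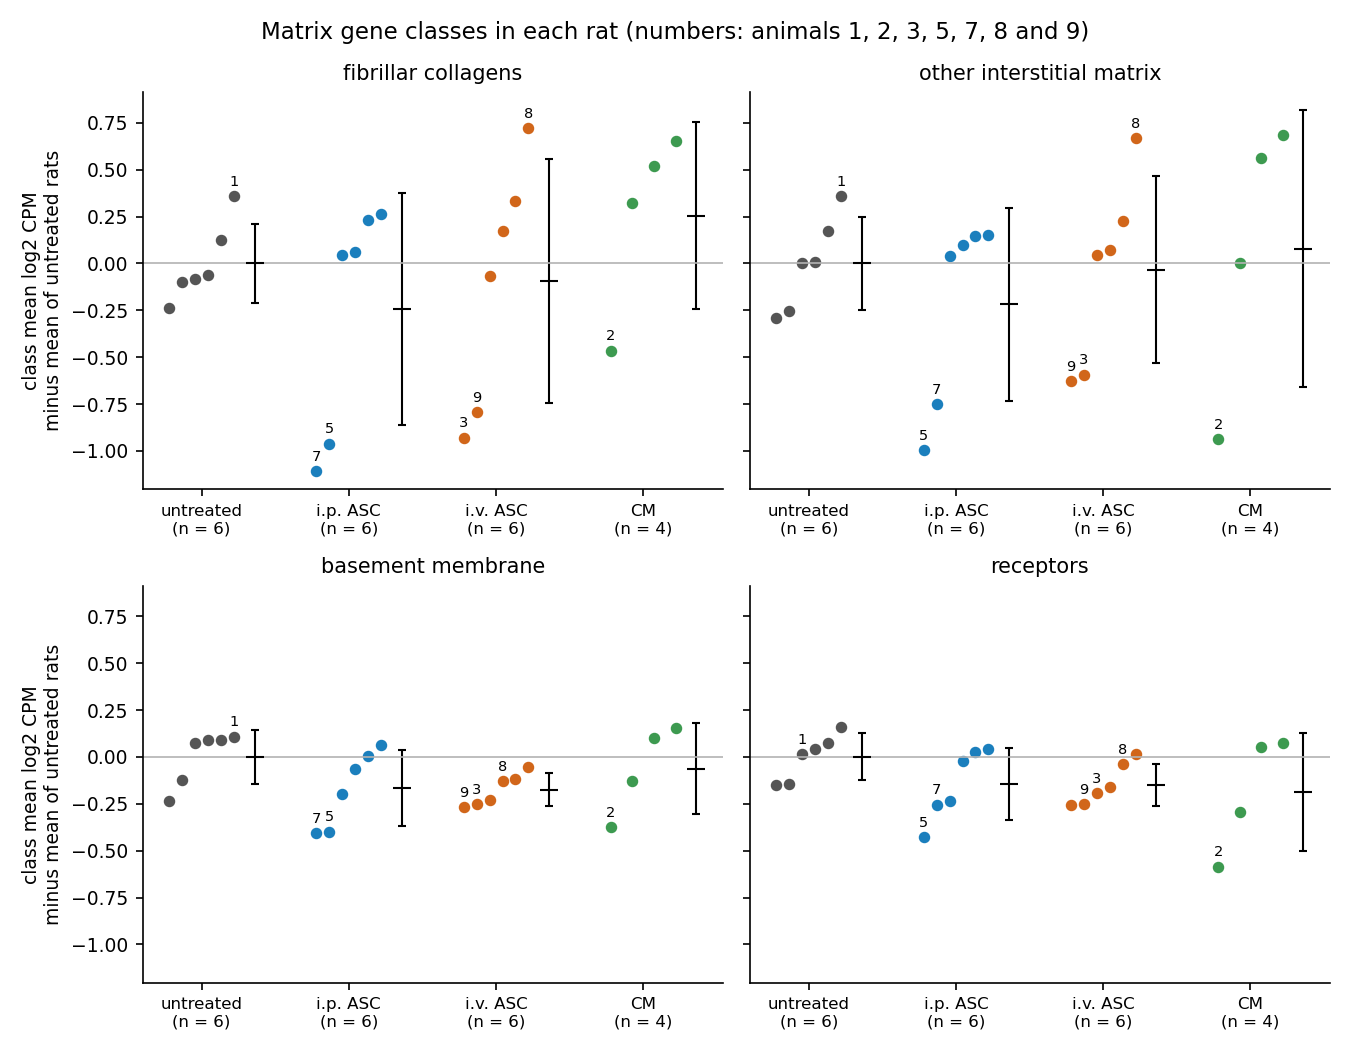
Mean log2 CPM of each class of genes in each rat, minus the mean of the untreated rats (y axis), with black marks for the group mean and its SD and numbers for animals named in the text. Fibrillar collagens spread from -1.11 to 0.72 in treated rats and from -0.24 to 0.36 in untreated rats, and the basement membrane and receptor classes spread less.

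The genes of a fibre varied together from rat to rat. Col1a1 and Col1a2, the chains of type I collagen, had a Pearson r of 0.954 and a Spearman rho of 0.962 over the 22 rats (permutation p = 1e-05 for both, the smallest that 100000 permutations can give, adjusted p = 2e-05). Leaving out the 2 rats farthest from the median of Col1a1 gave an r of 0.93. Col1a1 and Col3a1 had an r of 0.941 and a rho of 0.957, and Col5a1 and Col5a2 an r of 0.967 and a rho of 0.923, with the same permutation p and adjusted p and an r of 0.924 and 0.952 without the 2 farthest rats. Within the untreated group alone the r values of these 3 pairs were 0.902, 0.709 and 0.868 over 6 rats. In all, 7 pairs of partner genes were tested of the 15 listed, since for the other 8 a partner was not analysed here.

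Of the other interstitial genes, Col6a2, a chain of the beaded type VI collagen, followed the same rats. It had 115, 138 and 155 CPM in untreated rats, 57.6, 157 and 193 CPM after i.p. ASC, 65.1, 136 and 217 CPM after i.v. ASC, and 81.8, 146, 235 and 236 CPM in the CM rats. Rats 5, 7, 3, 9 and 2 were again the low ones, and the groups overlapped. Fn1, the gene of fibronectin, ran from 193 to 305 CPM in untreated rats and from 124 to 368 CPM in treated rats. Tnc, the gene of the repair-associated tenascin C, had a log2 fold change of -0.34 ± 0.30, -0.35 ± 0.30 and -0.51 ± 0.34 (SE), each within 2 SE of 0. Col14a1, a collagen found on the surface of fibrils, was the fourth of the CM group by unadjusted p. Its 4 CM rats had 4.2, 9.0, 23.7 and 19.8 CPM, against 6.84, 7.97 and 11.2 CPM in untreated rats, 3.49, 8.39 and 12.4 CPM after i.p. ASC and 8.82, 13.6 and 18.02 CPM after i.v. ASC. The groups overlapped, and the log2 fold change of 0.78 ± 0.35 (SE) in the CM group had an adjusted p of 0.711 from edgeR. It was 0.41 without CM rat 19 and 1.07 without CM rat 2. On the log2(TPM + 1) scale it was 0.36, but the added 1 shrinks a change at so low a level (mean 1.732 TPM in untreated and 2.92 TPM in CM rats).

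The rats that were low in fibrillar collagens also differed in markers of other cell types. The summed level of 7 endothelial markers, Emcn and Pecam1 the most abundant by TPM in untreated rats, was 292 and 312 CPM in rats 5 and 7, 291 and 214 CPM in rats 3 and 9 and 274 CPM in rat 2, against 452 to 574 CPM in untreated rats. The mean of the thick ascending limb and distal tubule markers was 9.75, 10.2, 10.1, 10.1 and 10.2 log2 CPM in these 5 rats, against 8.6 to 9.72 in untreated rats. By sum, 4 of the 5 lay above the untreated range of 3802 to 7164 CPM, and rat 5 lay within it at 6231 CPM. Slc12a3, a distal tubule gene of this list, went the other way at least in rats 5 and 2, the lowest of their groups (947.5 and 680 CPM). Untreated rats had 1965 to 3077 CPM. The i.v. median of Slc12a3 (1606 CPM) and its lowest i.v. value (603 CPM, rat 13) also lay below that range. Other rats lay outside the untreated range of these 2 lists without low fibrillar collagens. Rats 6, 10, 11 and 13 had endothelial sums of 367.5, 419, 276 and 346 CPM, and rats 11, 13, 15 and 17 had thick ascending limb and distal tubule means of 10.04, 10.02, 9.79 and 10.02 log2 CPM, with sums of 8008, 7794, 7714 and 7699 CPM. The fibrillar class mean of rat 10 minus the untreated mean was -0.07 log2 CPM, and those of rats 6, 11, 13, 15 and 17 were 0.23, 0.32, 0.17, 0.06 and 0.26. No marker of these 2 lists was at 0 in any rat. The same 5 rats lay below all untreated rats in the sum of the 6 fibroblast markers (186 to 296 CPM, against 357.5 to 473 CPM) and of the 7 macrophage markers, C1qa the most abundant by TPM (141 to 288 CPM, against 352 to 484 CPM). The means of these 2 lists were below all untreated rats as well. Rat 13 was also below them in the fibroblast sum (334 CPM) and rat 11 in both means (3.82 and 4.90 log2 CPM). The podocyte sum of rats 5, 7, 3, 9 and 2 was 409, 403.5, 227, 217 and 209 CPM, against 467 to 887 CPM in untreated rats. Rats 6, 10, 11 and 13 were below that range too (386.5, 410, 228 and 261 CPM). The smooth muscle mean of rats 5, 7, 9 and 2 (5.87, 5.93, 5.60 and 5.50 log2 CPM) was below the untreated 6.01 to 6.81. That of rats 11 and 13 was as well (5.65 and 5.85), and rat 3 lay above it (7.055). The sum of the 9 proximal tubule markers, Slc34a1 the most abundant by TPM, was above all untreated rats (4938 to 7734 CPM, against 1873 to 4853 CPM), but the list mean of rats 7, 9 and 2 (8.39, 7.94 and 8.21 log2 CPM) lay within the untreated range of 7.4 to 8.54, and the sum of CM rat 21, which was not low in collagens, was 5268 CPM. The sum of the 4 adipocyte markers was also above it (86.3 to 109 CPM, against 22.8 to 50.4 CPM), mostly by Cidec, with 84.0 CPM in rat 2 and 72.8 CPM in rat 3, while Adipoq in these 2 rats (23.7 and 20.9 CPM) lay within the untreated 15.8 to 31.7 CPM. Rats 8, 10, 11 and 13 had adipocyte sums above all untreated rats as well (51.9, 63.5, 61.4 and 55.7 CPM). By group, the sum of the fibroblast markers, Dpt the most abundant by TPM, ran from 358 to 473 CPM in untreated rats, 224 to 534 CPM after i.p. ASC, 186 to 651 CPM after i.v. ASC and 296 to 628 CPM after ASC-derived CM, with 1 marker at 0 in rats 11 and 23. In whole tissue, fewer cells of a type and less RNA per cell cannot be told apart. An alternative fit held the mean of the proximal tubule markers as a covariate, and no conclusion is drawn from it. The part of the other markers in the result was not tested. No list of the 12 marker lists differed between a treated and the untreated group after adjustment over the 36 exact permutation tests, with a smallest adjusted p of 0.592.

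Among the basement membrane collagens, the values of Col4a1 (Entrez 290905) were lower on average in each treated group, although not after i.p. ASC within 1 of the 2 sets of libraries (a log2 fold change of 0.0055). It had 722, 882 and 1446 CPM in untreated rats, 591, 724 and 814 CPM after i.p. ASC, and 424, 603 and 887 CPM after i.v. ASC. The CM rats had 508, 609, 859 and 841 CPM. The ranges overlapped, and untreated rat 1 at 1446 CPM stood far above the other untreated rats, whose highest was 932 CPM. The log2 fold change was -0.38 ± 0.19 (SE), -0.52 ± 0.19 and -0.40 ± 0.21, and the adjusted p from edgeR was 0.771, 0.523 and 0.711. The i.p. value was -0.21 and the i.v. value -0.35 without untreated rat 1, and the i.v. value was -0.25 without i.v. rats 3, 9 and 13. The mean of the endothelial markers was also lower by value in each treated group, with differences of -0.283, -0.456 and -0.373 log2 CPM, as was that of the podocyte markers, with -0.346, -0.876 and -0.801, and their part in the values of Col4a1 was not tested. Col18a1, whose product yields endostatin, had 591, 630 and 736 CPM in untreated rats, 531, 593 and 666 CPM after i.p. ASC, 512, 581 and 644 CPM after i.v. ASC and 506, 613, 626 and 588 CPM in the CM rats. All 3 of its log2 fold changes lay between -0.16 and -0.13, with overlapping groups. All 5 genes of this class were below 0 by sign after i.p. and after i.v. ASC, with a median of -0.13 and -0.21.

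Col4a3 and Col4a4 belong to the glomerular network and are neighbours that are read in opposite directions. In RefSeq (rat assembly GRCr8, a newer build than the rn6 of the deposited tables) their starts lie 413 bases apart on chromosome 9, so that the 250 bases before each start overlap. Both are shown because the transcripts varied together from rat to rat. The 88 bases that the windows share are in capitals, each window is written 5′ to 3′ on its own gene's strand, and the windows span chr9:91323740-91323989 for Col4a3 (plus strand) and chr9:91323578-91323827 for Col4a4 (minus strand).
Col4a3: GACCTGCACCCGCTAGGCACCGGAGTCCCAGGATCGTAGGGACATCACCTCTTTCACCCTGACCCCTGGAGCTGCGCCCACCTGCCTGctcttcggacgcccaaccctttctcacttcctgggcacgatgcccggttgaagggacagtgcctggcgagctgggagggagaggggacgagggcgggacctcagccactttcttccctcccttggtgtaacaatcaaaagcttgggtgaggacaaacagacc
Col4a4: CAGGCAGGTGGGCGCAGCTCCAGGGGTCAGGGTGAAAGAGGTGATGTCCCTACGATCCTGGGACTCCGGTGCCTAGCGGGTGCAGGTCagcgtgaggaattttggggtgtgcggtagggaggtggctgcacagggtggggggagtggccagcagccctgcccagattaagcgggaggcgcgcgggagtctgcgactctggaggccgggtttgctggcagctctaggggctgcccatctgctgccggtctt
A GC box (GGGCGG, searched on both strands) was found once in the Col4a3 window, from 72 to 67 bases before the start, and none in that of Col4a4. The search covered 300 bases per gene, with 50 after the start. A promoter window was at hand for 22 of the 32 genes, of which 11 held a GC box, 5 a CCAAT box (CCAAT) and 3 a TATA box (TATAAA), where 33.1%, 37.5% and 14.2% of all rat promoter windows did. A match of letters is a description and no evidence of a bound factor.

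Col4a3 had 30.3, 42.9 and 74.0 CPM in untreated rats, 23.97, 38.3 and 68.3 CPM after i.p. ASC, 20.4, 37.0 and 47.7 CPM after i.v. ASC, and 46.7, 34.8, 56.0 and 56.9 CPM in the CM rats. Untreated rats 22 and 23 and i.p. rats 15 and 17 were the highest, and the groups overlapped. Its r with Col4a4 over the 22 rats was 0.848 and rho 0.835 (permutation p = 1e-05 for both, adjusted p = 2e-05), with 0.802 without the 2 farthest rats and 0.947, 0.634 and 0.908 within the untreated, i.p. and i.v. groups. Its r with Col4a1 was 0.106 and rho 0.247 (permutation p = 0.64 and 0.269, adjusted p = 0.64 and 0.269), and 0.257 without the 2 farthest rats. The unit decided how the pair compared in level. By count, Col4a3 was 3.51 to 7.88 times Col4a4, and by TPM 0.594 to 1.37 times. The length that the deposited TPM implies for Col4a4, its count over its TPM, was 0.472 of the median gene, against 2.59 for Col4a3, and Col4a4 was the only one of the 32 genes below the median gene.

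**Figure D3:**
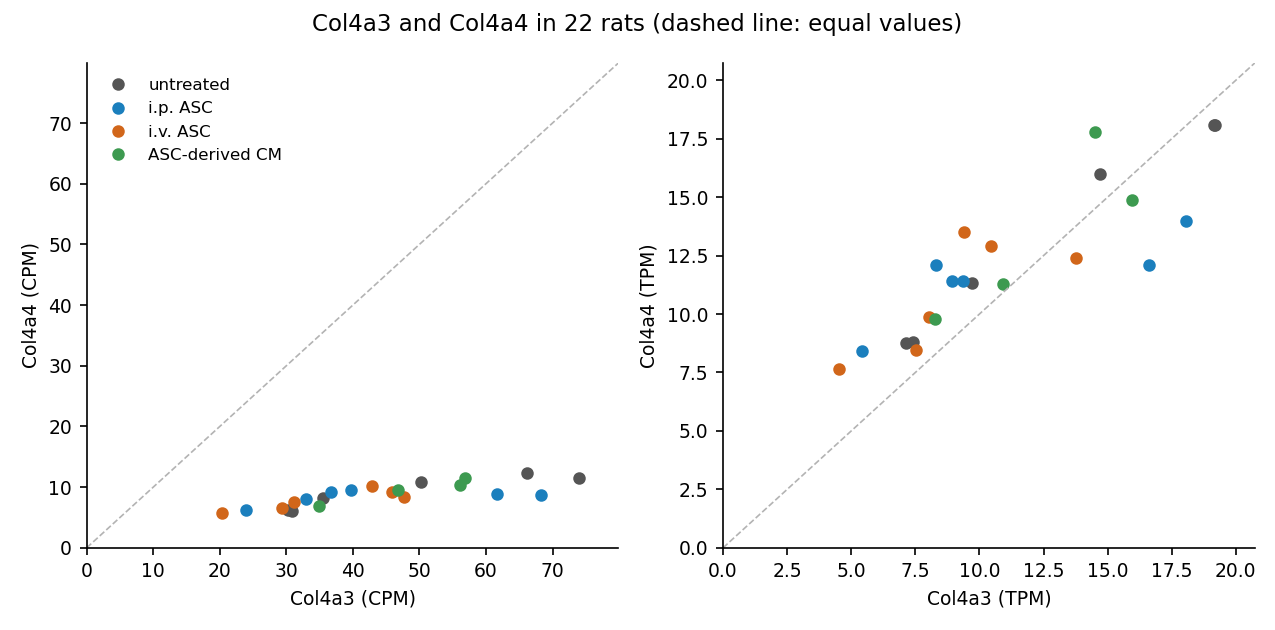
Col4a4 (y axis) against Col4a3 (x axis) in each of the 22 rats, in CPM on the left and TPM on the right, with colours for the groups and a dashed line for equal values. The points rise together in both panels (r = 0.848 on the log2 CPM scale) but lie far below the line in CPM and on both sides of it in TPM.

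Lama1 (Entrez 316758), the alpha chain of laminin 111, had the lowest or second lowest unadjusted p of the 32 genes in all 3 comparisons. It had 27.2, 32.8 and 35.8 CPM in untreated rats, 18.2, 24.2 and 28.1 CPM after i.p. ASC, and 14.4, 23.6 and 24.9 CPM after i.v. ASC. The CM rats had 18.2, 22.6, 23.5 and 27.0 CPM. By CPM, all i.v. and CM rats lay below all untreated rats, and 1 i.p. rat overlapped them. By TPM the i.v. and CM rats overlapped them too. The lowest untreated value was 2.912 TPM, against a highest of 3.309 TPM after i.v. ASC and 3.127 TPM in the CM group. CPM ranges below the untreated ones without overlap were seen in 0, 1 and 4 of the 32 genes after i.p. ASC, i.v. ASC and ASC-derived CM, beside 0.124%, 0.155% and 0.987% of all genes. CPM ranges above the untreated ones were seen in 0 of the 32 genes, beside 0.0155%, 0.0233% and 0.435% of all genes. These gaps depended on the unit. By TPM those of Lama1, Itgb1 and Itgb6 closed. That of Sdc4 in the CM group stayed by a narrow margin (highest 377.0 TPM, against a lowest untreated value of 378.0 TPM). The log2 fold change of Lama1 was -0.39 ± 0.13 (SE), -0.55 ± 0.13 and -0.48 ± 0.15. The adjusted p from edgeR was 0.771, 0.329 and 0.711, while DESeq2 gave an adjusted p of 0.044 for i.v. ASC. When 1 rat was left out, the i.v. value ran from -0.59 to -0.45. Lama1 transcripts were long, 5.63 times the median gene, and subtracting the trend on length left -0.27, -0.42 and -0.46.

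Lamb3, the beta chain of the laminin of epithelial anchoring structures, was above 0 by sign in all 3 comparisons (below 0 by TPM after i.p. ASC), while the other 5 laminins were below 0 after i.p. and i.v. ASC. It had 14.9, 25.1 and 33.5 CPM in untreated rats, 18.1, 24.5 and 34.5 CPM after i.p. ASC, and 24.7, 29.1 and 70.1 CPM after i.v. ASC, where rats 9 and 13 (70.1 and 57.9 CPM) were the high ones. In the CM group it had 27.7, 50.7, 29.6 and 27.7 CPM. The groups overlapped, and the log2 fold change after i.v. ASC was 0.68 ± 0.26 (SE), with an adjusted p of 0.523 from edgeR. It ran from 0.44 to 0.79 when 1 rat was left out. Rats 9 and 13 had urothelial marker sums of 412 and 97.4 CPM, against 1.97 to 11.96 CPM in untreated rats. Rat 3, with 230 CPM, had the lowest i.v. value of Lamb3. The collecting duct means of rats 9 and 13 (8.82 and 8.48 log2 CPM) lay above the untreated 7.595 to 8.42. The part of these markers in the values of Lamb3 was not tested. Lamb2 had 357, 408 and 483 CPM in untreated rats, 251, 390 and 468 CPM after i.p. ASC, 313, 365 and 388 CPM after i.v. ASC and 296, 321, 453 and 401 CPM in the CM rats, with overlapping groups. Lama5 and Lamc1, chains of the main laminin of mature kidney basement membrane, had log2 fold changes between -0.17 and 0.01. Lama4, the vascular alpha chain, ran from 27.9 to 38.7 CPM in untreated rats and from 16.4 to 52.0 CPM in treated rats, with rats 7, 2 and 5 the lowest.

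Agrn, the gene of the heparan sulfate proteoglycan agrin, and Nid2, which links laminin to type IV collagen, had log2 fold changes of at most 0.16 in size. Agrn had 250, 293 and 315 CPM in untreated rats, 207, 270 and 300 CPM after i.p. ASC, 242, 262 and 307 CPM after i.v. ASC and 216, 295, 323 and 290 CPM in the CM rats. All groups overlapped, and the log2 fold changes were -0.16 ± 0.10, -0.11 ± 0.10 and -0.05 ± 0.11 (SE). Over the 13 basement membrane genes the median log2 fold change was -0.13 after i.p. ASC, -0.17 after i.v. ASC and -0.05 after ASC-derived CM. The CM median turned to 0.05 without CM rat 2 and was -0.15 without CM rat 19.

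Of the integrins, 7 of 7 were below 0 by sign after i.p. ASC and 6 of 7 after i.v. ASC and after ASC-derived CM. Itgb1 had 763, 774 and 837 CPM in untreated rats, 678, 758 and 849 CPM after i.p. ASC, and 626, 731 and 857 CPM after i.v. ASC. The CM rats had 644, 718, 760 and 759 CPM and were all below the untreated rats by a narrow margin. By TPM Itgb1 overlapped between them (209.4 to 301.4 TPM in CM rats, against 257.2 to 318.5 TPM). Its log2 fold change in the CM group was -0.13 ± 0.08 (SE), with an adjusted p of 0.753 from edgeR. Itgb6, the epithelial partner of the alpha v chain that activates latent TGF-beta, had 104, 110 and 141 CPM in untreated rats, 65.3, 102 and 129 CPM after i.p. ASC, and 72.3, 104 and 114 CPM after i.v. ASC. The CM rats had 58.3, 90.7, 99.9 and 101 CPM, all below the untreated rats, although by TPM they overlapped (25.22 to 52.75 TPM, against 46.89 to 71.51 TPM). The log2 fold change of -0.40 ± 0.17 (SE) had an adjusted p of 0.711 from edgeR. It was -0.26 without CM rat 2. Itga1, a collagen-binding alpha chain, had 48.0, 68.7 and 86.5 CPM in untreated rats and 37.0, 47.9 and 72.2 CPM after i.v. ASC, with overlapping groups and a log2 fold change of -0.46 ± 0.20 (SE, adjusted p = 0.523 from edgeR). Itga8, the alpha chain of mesangial cells, varied most, from 8.87 to 45.1 CPM in untreated rats, 8.68 to 25.8 CPM after i.p. ASC, 3.40 to 18.8 CPM after i.v. ASC and 5.1 to 33.6 CPM in the CM rats. Its log2 fold change of -1.07 ± 0.53 (SE) after i.v. ASC had an adjusted p of 0.523 from edgeR. The sum of the 7 podocyte markers, none of them at 0 in any rat, was 467, 586 and 887 CPM in untreated rats and 217, 336 and 715 CPM after i.v. ASC. Its mean log2 CPM was 0.876 lower after i.v. ASC (exact permutation p = 0.0368, two-sided, adjusted p = 0.592), and its part in the values of Itga8 and Col4a3 was not tested. Itga6 and Itgb4, chains of the integrin of epithelial anchoring structures, had an r of -0.605 and a rho of -0.479 over the 22 rats (permutation p = 0.00381 and 0.0257, adjusted p = 0.00533 and 0.036), and -0.485 without the 2 farthest rats. The sign depended on the unit, since the r by TPM was 0.141. Itga8 and Itgb1 had an r of 0.343 and a rho of 0.27 (permutation p = 0.118 and 0.222, adjusted p = 0.138 and 0.26), with 0.273 without the 2 farthest rats, and 0.672 by TPM.

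Sdc1 (Entrez 25216), a syndecan of epithelia and plasma cells, had the largest log2 fold change of the 32 genes after i.v. ASC. It had 35.0, 39.2 and 59.0 CPM in untreated rats and 33.2, 49.8 and 57.1 CPM after i.p. ASC. The i.v. rats 3, 8, 9, 10, 13 and 14 had 91.6, 57.9, 173, 53.2, 113 and 49.2 CPM, and the CM rats had 41.4, 61.1, 52.4 and 44.9 CPM. Rats 3, 9 and 13 lay above all the other rats analysed here, and the other 3 i.v. rats lay within the untreated range. The log2 fold change after i.v. ASC was 1.09 ± 0.25 (SE), a fold of 2.12, with an adjusted p of 0.259 from edgeR and 0.00959 from DESeq2. Urothelial markers were high in the same rats. Of the 7 listed, 6 were found, with Upk1a the most abundant by TPM in the i.v. group. Their sum was 230, 412 and 97.4 CPM in rats 3, 9 and 13, 18.9 CPM in i.v. rat 10, and 3.31 and 2.30 CPM in i.v. rats 8 and 14. It was 1.97, 2.16 and 11.96 CPM in untreated rats, 1.99 to 8.80 CPM after i.p. ASC and 2.69 to 3.18 CPM in the CM rats. Upk2 was at 0 counts in 11 of the rats outside the i.v. group and in no i.v. rat. The mean of the urothelial markers was 2.92 log2 CPM higher after i.v. ASC (exact permutation p = 0.0238, two-sided, adjusted p = 0.592), and its part in the value of Sdc1 was not tested. The collecting duct mean lay above the untreated range of 7.595 to 8.42 log2 CPM in rats 9 and 13 (8.82 and 8.48) and within it in rat 3 (8.01). Its part was not tested either. Without rats 3, 9 and 13, which were left out for their urothelial markers after the data were seen, the log2 fold change of Sdc1 was 0.34 (adjusted p = 0.998) and that of Lamb3 0.20 (adjusted p = 0.998), while Lama1 had -0.48 (adjusted p = 0.998), all from edgeR.

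**Figure D4:**
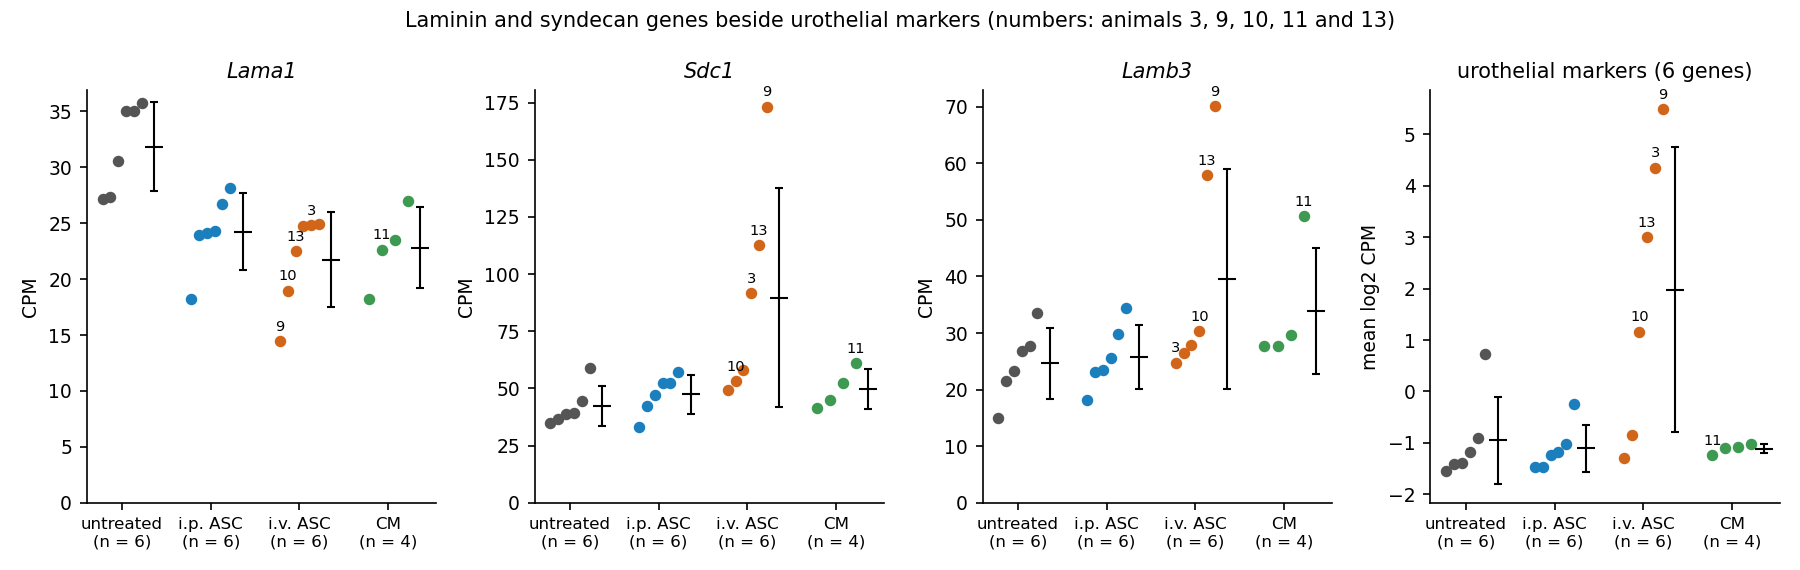
Lama1, Sdc1 and Lamb3 in CPM and the mean log2 CPM of 6 urothelial markers in each rat (y axes), by group (x axis), with black marks for the mean and SD and numbers for animals 3, 9, 10, 11 and 13. By CPM, all i.v. and CM rats lie below the untreated rats for Lama1, whose lowest had 27.2 CPM, although the ranges overlap by TPM. Sdc1 and the urothelial markers are high in i.v. rats 3, 9 and 13.

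Sdc4 varied less than Sdc1, with a coefficient of variation of 8.73% against 20.9% in untreated rats. It had 660, 723 and 818 CPM in untreated rats, 641, 707 and 823 CPM after i.p. ASC and 625.4, 752 and 806 CPM after i.v. ASC. The CM rats had 597, 636, 629 and 626 CPM, a span below all untreated and all i.p. rats. By CPM, Sdc4 was the only one of the 32 genes with such a gap from i.p. ASC, beside 0.358% of all genes. By TPM the CM rats (293.3 to 377.0 TPM) overlapped the i.p. rats (339.9 to 456.4 TPM). They lay just below the lowest untreated rat at 378.0 TPM. The log2 fold change in the CM group was -0.24 ± 0.09 (SE), a fold of 0.847, with an adjusted p of 0.711 from edgeR. Dag1 had log2 fold changes of -0.14 ± 0.09, -0.19 ± 0.09 and -0.12 ± 0.10 (SE) with overlapping groups. Over the 10 receptor genes, the median was -0.15 in each of the 3 comparisons.

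Between the treated groups, 0 of the 32 genes were called by edgeR in any of the 3 comparisons, beside 0.0% of all genes, and 0 by DESeq2 (beside 0.157%, 0.0131% and 0.144% of all genes). The smallest adjusted p from edgeR among the 32 genes was 0.586 (i.v. against i.p. ASC), 1.0 (CM against i.p. ASC) and 0.993 (CM against i.v. ASC). Unadjusted p-values below 0.05 were found for 3, 2 and 3 genes, beside 2.18%, 2.95% and 4.1% of all genes. They were Col14a1, Lamb3 and Sdc1 in i.v. against i.p. ASC, Col14a1 and Sdc4 in CM against i.p. ASC, and Nid2, Sdc1 and Sdc4 in CM against i.v. ASC. Sdc1 had a log2 fold change of 0.92 ± 0.25 (SE) in i.v. against i.p. ASC, and 0.16 without rats 3, 9 and 13. All 5 fibrillar collagens had higher values in the CM group than in either ASC group by sign, as did 53.1% and 54.7% of all genes against i.p. and i.v. ASC, with a median log2 fold change of 0.44 and 0.31. For Col1a1 the difference from i.p. ASC was 0.60 ± 0.31 (SE), within 2 SE of 0. Without i.v. rats 3, 9 and 13 the median difference from i.v. ASC turned to -0.06, with 4 of the 5 genes below 0.

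Of the 83 other genes of the matrix pathway that were listed, 73 were found and tested, and 0 were called in the 3 comparisons by edgeR and 0 by DESeq2. Unadjusted p-values below 0.05 were found for 0 higher and 2 lower genes after i.p. ASC, 1 higher and 6 lower after i.v. ASC, and 2 higher and 1 lower after ASC-derived CM. Beside these, 1.75% of all genes were higher and 2.14% lower, 3.81% and 5.0%, and 2.84% and 3.75%. Their median log2 fold change was -0.14, -0.17 and -0.02, close to that of the 32 genes. Thbs1, the gene of the TGF-beta activating thrombospondin 1, had 194, 331 and 616 CPM in untreated rats, 121, 208 and 317 CPM after i.p. ASC and 141, 219 and 291 CPM after i.v. ASC, with log2 fold changes of -0.76 ± 0.29 and -0.71 ± 0.29 (SE) and an adjusted p of 0.771 and 0.523 from edgeR. Thbs3, of the same family, had -0.39 ± 0.14 after i.p. ASC. Col17a1, a transmembrane collagen of epithelial anchoring structures, had 0.74 ± 0.30 after i.v. ASC, where rat 9 was the highest at 30.5 CPM. In the CM group Vtn, the gene of vitronectin, had 0.90 ± 0.40 at a low level (2.21 to 3.53 CPM, against 1.11 to 2.12 CPM in untreated rats), and the collagen receptor gene Ddr1 had -0.13 ± 0.06. CPM ranges did not overlap for either of these 2 genes, and both had an adjusted p of 0.711 from edgeR. By list, the medians after i.p. ASC, i.v. ASC and ASC-derived CM were -0.26, -0.22 and -0.07 for the 12 other collagens, -0.07, -0.07 and 0.18 for the 10 other laminins and integrins, -0.17, -0.16 and -0.12 for the 18 other receptors and adhesive glycoproteins, -0.14, -0.19 and -0.11 for the 16 genes of collagen maturation and cross-linking, and -0.09, -0.13 and 0.20 for the 17 genes of small proteoglycans and elastic fibre.

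Because these transcripts are long, the count results were set against TPM and against length. The length that the deposited values imply had a median of 2.78 times the median gene over the 32 genes, and 31 of them were longer than it. In each comparison 29 of the 32 genes had the same sign by count and by TPM. The 3 others were Col1a1, Col3a1 and Lamb3 after i.p. ASC, Col1a2, Col3a1 and Itgb4 after i.v. ASC, and Lama4, Lama5 and Itgb4 after ASC-derived CM. The largest of their log2 fold changes by count was 0.18 in size. The TPM scale moved all genes together, with a median over the 12867 genes of -0.10, -0.12 and -0.07. The fibrillar collagens had a median of -0.35, -0.06 and 0.36 by TPM, and -0.26, 0.05 and 0.42 relative to all genes. The basement membrane genes had -0.12, -0.15 and -0.08 relative to all genes by TPM and the receptors -0.14, -0.15 and -0.17. Across all genes, the longest 1287 genes had a median log2 fold change of -0.08, -0.10 and -0.01 and the shortest 1287 genes 0.06, 0.12 and 0.02. The fitted trend on length was worth -0.08, -0.09 and -0.01 at the median of the 32 genes, and subtracting it left a median of -0.06, -0.06 and -0.03. The slope of a library on transcript length differed from that of the untreated libraries by -0.0382, -0.0521 and -0.0152 log2 CPM per doubling of length (exact permutation p = 0.197, 0.0779 and 0.638, two-sided, adjusted p = 0.295, 0.234 and 0.638). Within the 2 sets of libraries the i.p. difference turned from -0.0789 to 0.00236 and the CM difference from -0.0486 to 0.0182, while the i.v. difference was -0.0539 and -0.0504.

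**Figure D5:**
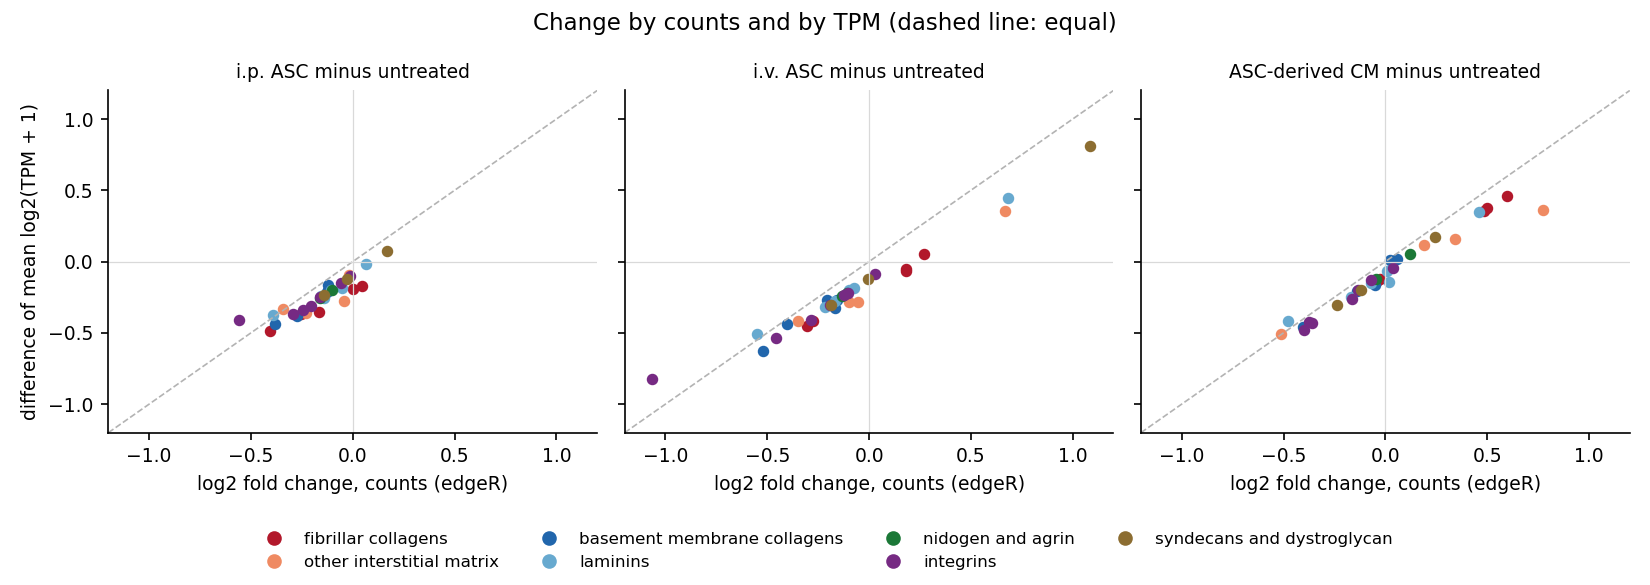
Difference of mean log2(TPM + 1) (y axis) against the log2 fold change by count (x axis) for the 32 genes in the 3 comparisons, with colours for the classes and a dashed line for equal values. Most points lie under the line, as the median of all genes did (-0.10, -0.12 and -0.07 by TPM). The exceptions are Lama1 in all 3 panels, Itga8 after i.p. and i.v. ASC, and Tnc after i.p. ASC and ASC-derived CM. These genes had low medians in untreated rats (4.13, 4.28 and 5.26 TPM), where the added 1 shrinks a change towards 0.

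The 22 libraries formed 2 sets of 11 that differed in the estimated count per TPM of short against long transcripts, from 0.1344 to 0.1556 log2 units in one and from -0.1837 to -0.1045 in the other, relative to the mean of all. Each group was divided evenly between them (3 and 3, and 2 and 2 in the CM group), and the labels name no such batch. Within the first set the median log2 fold change of the 32 genes was -0.41 after i.p. ASC, -0.15 after i.v. ASC and -0.14 after ASC-derived CM, and within the other 0.05, -0.11 and 0.06. The fibrillar collagens had -0.61, 0.15 and 0.23 in the first and 0.23, 0.16 and 0.75 in the other. The low i.p. rats 5 and 7 were both in the first set. The negative medians after i.p. ASC did not hold within the other set. Lama1 was below 0 in both sets in every comparison, with -0.61, -0.62 and -0.69 in the first and -0.18, -0.48 and -0.27 in the other. The r of the 3 fibrillar pairs lay between 0.924 and 0.977 within each set, and that of Col4a3 and Col4a4 was 0.799 and 0.866.

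Of the other lists of cell type markers, the means of the adipocyte list were 0.485, 0.565 and 0.371 log2 CPM higher after i.p. ASC, i.v. ASC and ASC-derived CM (exact permutation p = 0.0887, 0.0844 and 0.352, two-sided). Within the 2 sets of libraries the adipocyte difference turned from 1.09 to -0.122 after i.p. ASC and from 1.05 to -0.313 after ASC-derived CM, and was 0.655 and 0.476 after i.v. ASC. The differences of the collecting duct list were -0.0231, 0.259 and -0.232 and those of the smooth muscle and myofibroblast list -0.169, -0.0806 and -0.216. For the proximal tubule they were 0.0536 (0.563 and -0.455 within the sets), -0.103 (-0.365 and 0.16) and 0.157, and for injured tubule 0.008, 0.0433 and -0.133. The macrophage list had -0.114, -0.163 and 0.0403, and the lymphocyte list 0.181, 0.204 and 0.294. The fibroblast list had 0.125, -0.0191 and 0.27, and turned between the sets after i.p. ASC (-0.2 and 0.45) and i.v. ASC (0.0678 and -0.106). The thick ascending limb and distal tubule list had 0.43, 0.369 and 0.365. It turned after i.p. ASC (0.967 and -0.107) and ASC-derived CM (0.855 and -0.125), as did the urothelial list. Between the 2 sets the direction also turned in all 3 comparisons for injured tubule and macrophages, after i.p. and i.v. ASC for lymphocytes, after i.p. ASC for the collecting duct, and after i.v. ASC and ASC-derived CM for smooth muscle. All had an adjusted p of 0.592 or more over the 36 exact permutation tests, and with 4 rats against 6 the smallest p that the exact test could give was 0.0095.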

How the data were processed

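RNA of the left kidney of each of the 22 rats was sequenced separately. The authors deposited estimated counts and TPM per gene, and 14.1% of the count values were not whole. Per the labels and the submitters' processing notes, reads were trimmed with Trim Galore 0.6.4 and quantified with kallisto 0.4.6 against rn6. The study's methods name DESeq2 and a human transcript package, and which annotation was used for the deposited TPM is not given in the sources used here. Estimated counts were rounded to whole numbers, filtered with edgeR's filterByExpr and normalised by TMM. All 4 groups entered 1 edgeR 4.0.16 quasi-likelihood fit (R 4.3.3), with Benjamini-Hochberg adjustment at 0.05 over all genes tested. CPM values use TMM library sizes, with a prior count of 2 on the log2 scale. TPM was tested with limma 3.58.1 on log2(TPM + 1). DESeq2 1.42.0, sva 3.50.0 (1 surrogate variable), other filters, the proximal tubule marker mean as a covariate, the library sets and leaving out each rat were alternatives. Single values were compared with exact permutation tests (scipy 1.17.1), and pairs with 100000 permutations. Relative length is the estimated count over TPM, from values of at least 5 counts. Of 17334 genes, 17179 matched a RefSeq symbol (GRCr8), used for names and promoter sequence only. The rats of a group are separate animals. Totals of 12195682 to 14734772 counts per rat limit the precision of genes at a few CPM. In simulated data for the i.v. ASC comparison, 191 of 200 genes changed by 2 on the log2 scale were recovered, with 13 false calls among 12804 genes. Members and lists (fibroblast, smooth muscle, podocyte, endothelium, tubule segments, urothelium, macrophage, lymphocyte, adipocyte, and other matrix genes) were chosen with earlier results of these data known. Levels were given by rat or as the lowest, median and highest of a group. They covered the 4 matrix genes of smallest unadjusted p in each comparison with untreated rats and the most abundant (TPM) of each class. Per comparison, 2 other pathway genes were named by the same p, not all of them with levels. Other genes were named after their values were seen.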

Additional observations from a re-analysis of the deposited data

Results flagged for a closer look

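Of 200 groups of 4 or 6 rats checked for a rat far from the others of its group by Dixon's test, 11 held one, where chance gives about 1 in 20. Untreated rat 1 was the highest in Col5a2 at 7.077 log2 CPM (the other untreated rats 6.401 to 6.632) and in Col4a1 at 10.5 log2 CPM (9.495 to 9.865). Lama1 was lowest in i.p. rat 7 at 4.197 log2 CPM (the others 4.592 to 4.822), and Itgb6 was lowest in i.v. rat 3 at 6.18 log2 CPM (6.605 to 6.839). Lamb3 was highest in CM rat 11 at 5.667 log2 CPM (4.8 to 4.893).

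The other 6 were means of marker lists in log2 CPM. The urothelial mean was 0.7301 in untreated rat 23 (the others -1.537 to -0.9131) and -0.2377 in i.p. rat 7 (-1.478 to -1.022). The lymphocyte mean was 1.951 in i.v. rat 3 (3.526 to 4.417) and 2.999 in CM rat 2 (3.988 to 4.165), both the lowest of their groups. The collecting duct mean was 8.018 in CM rat 2 (7.625 to 7.691), and the macrophage mean was 5.455 in untreated rat 24 (5.024 to 5.175). Rats 3, 7 and 2 are among those low in fibrillar collagens. The part of these values in the results was not tested.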

How the results depend on the processing

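No paired analysis was possible because the animal numbers name different rats in each group. With edgeR, 0 genes were called in each comparison. DESeq2 called 28 genes and 2 of the 32 matrix genes after i.v. ASC, 4 genes after ASC-derived CM, and 24, 2 and 22 genes between treatments (i.v. against i.p., CM against i.p., CM against i.v.). The limma test on log2(TPM + 1) without a filter called 1 gene after i.p. ASC, and the fit of the groups compared alone called 1 after ASC-derived CM. Leaving out 1 rat gave 0 to 14 genes and 0 to 1 matrix gene after i.v. ASC (11 genes without i.v. rat 8, 14 without i.v. rat 14, when Sdc1 had 1.21 and an adjusted p of 0.0487), and 0 to 13 in i.v. against i.p. ASC. It moved the fibrillar i.v. median from -0.04144 to 0.3321 and the length slope of the CM group from -0.033 to 0.00845 (without CM rat 2). The CM median ran from -0.1511 to 0.05149 for all 32 genes and from -0.1488 to 0.04976 for basement membrane, both extremes from CM rats 19 and 2. Other ranges that moved by over 1.5 times at an end were those of fibrillar (-0.2989 to -0.02186), other interstitial (-0.2479 to -0.01228) and basement membrane genes (-0.1996 to -0.09078) after i.p. ASC, of other interstitial genes after i.v. ASC (-0.2675 to 0.05441) and ASC-derived CM (0.1452 to 0.4449), of CM receptors (-0.2173 to -0.09017), of Col4a1 (-0.4468 to -0.2144), Agrn (-0.2039 to -0.1024) and Col18a1 (-0.1565 to -0.0823) after i.p. ASC, of Lamb3 after i.v. ASC (0.4445 to 0.7914) and of Itgb6 (-0.477 to -0.2553) and Col14a1 (0.4095 to 1.068) in the CM group.

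With 1 surrogate variable, medians of log2 fold changes moved to 0.1568 (fibrillar) and 0.1474 (other interstitial) after i.p. ASC, to 0.007251 (all 32 genes), 0.5599 (fibrillar), 0.3014 (other interstitial) and -0.009367 (receptors) after i.v. ASC, and to 0.9071 and 0.6317 (fibrillar and other interstitial) after ASC-derived CM. Within the first library set, the i.p. medians were -0.4095 (all 32 genes), -0.6085 (fibrillar), -0.5551 (other interstitial) and -0.3305 (basement membrane), and within the other set 0.05226, 0.2329, 0.2762 and 0.02542, with 0.001103 for receptors. The fibrillar CM median was 0.2257 and 0.7496 in the 2 sets. The fibrillar i.v. median was -0.06345 by log2(TPM + 1), with and without the filter, and -0.0661 by log2(TPM + 0.1). Without i.v. rats 3, 9 and 13, chosen after the data were seen, it was 0.5275, and that of the other interstitial genes 0.2478. Reversed were Col4a1 (0.005459) and Agrn (0.04651) after i.p. ASC in the second library set, the r of Itga6 and Itgb4 by TPM (0.141), and that of Col4a1 and Col4a3 centred on group means (-0.0162). The r of Itga8 and Itgb1 by TPM passed the threshold (0.672). The causes were not tested.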
